A study of Homo sapiens with 6 samples.

Results

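The genes described here encode the enzymes that place 3-O and 6-O sulfates on heparan sulfate: HS3ST1, HS3ST2, HS3ST3A1, HS3ST3B1, HS3ST4, HS3ST5 and HS3ST6, and HS6ST1, HS6ST2 and HS6ST3. They were chosen as all probe sets whose RefSeq transcript belongs to these 10 genes, which gave 1 probe set for each, 10 of the 1259 probe sets on the array. The colon carcinoma line HCT-15, an established human line, was profiled without drug (3 arrays) and after 5-aza-2'-deoxycytidine (3 arrays), a cytosine analogue that enters DNA and traps the enzymes that maintain its methylation. Both groups share the cell line and the RNA protocol. The labels give neither a dose nor a length of treatment. They do not say whether replicates were separate cultures, so every p-value reflects only how far these arrays scatter, which may be technical scatter. The submitters' question concerned glycogene expression in cells that bind E-selectin better after the drug.

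Heparan sulfate is a sugar chain attached to proteoglycans at the cell surface and in the matrix. After the chain has been polymerised it is N-sulfated, partly epimerised and 2-O-sulfated. HS6ST enzymes then add sulfate at carbon 6 of glucosamine, which many growth factors and their receptors need for binding, and HS3ST enzymes add the rarest modification, at carbon 3 of glucosamine. The HS3ST isoenzymes differ in the sequence they act on: HS3ST1 is known for making the antithrombin-binding site, and HS3ST3A1 and HS3ST3B1 for sites bound by a herpes simplex virus glycoprotein. The last pair have nearly identical catalytic domains.

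All values are log2 expression values as deposited, so a difference of 1 is a doubling. Array medians lay between 5.81 and 5.92, and the number of arrays limits the precision. Untreated replicate 3 was grouped by its source name and treatment entry, and its title, which says treated, conflicts with both. The word control stands in the title of each of the 6 arrays, the 3 treated ones included, and was not used. Over the 438 differing probe sets untreated replicate 3 lay a median 11% of the way from the other untreated arrays to the treated mean. The medians were -2.32% for untreated replicate 1 and -5.88% for untreated replicate 2. Replicate 3 lay on the treated side in 66.2% of these probe sets, against 44.7% and 37.9%. They were called with this array counted as untreated, so they cannot independently check its label. Results for the changed genes, HS3ST3B1, some pairs and most gene lists are therefore also given without this array. Of 12 epithelial and colon markers only LGALS4 (9.54 untreated) and MUC13 (7.97) were measured, so the labelled cell type was checked on 2 genes alone. Both changed with treatment, LGALS4 by -0.51 (limma adjusted p = 0.000291) and MUC13 by 0.96 (limma adjusted p = 6.15e-06). The 4 measured leukocyte markers of 10 had a mean level of 4.82 to 4.96 in untreated and 4.92 to 5.05 in treated arrays, with 1 rise (CD33) and 1 fall (CD22). The 4 measured stromal and endothelial markers of 10 had a mean level of 3.75 to 3.94 in untreated and 3.77 to 3.92 in treated arrays, with 1 rise (PECAM1) and 1 fall (PDGFRB). The part of other cells in the results below was not tested.

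Treatment was followed by a change in 3 of the 10 genes, in opposite directions within the 3-O family. HS6ST2 was measured 3.88-fold higher, HS3ST3A1 was 1.84-fold higher in treated cells, and HS3ST1 was 2.28-fold lower. The untreated level of HS6ST2 is not shown to be above the array's background, so its fold may understate the change. The other 7 genes did not pass limma's test with Benjamini-Hochberg adjustment over all probe sets at 0.05. Their 95% intervals allowed at most a 1.24-fold rise or a 1.2-fold fall in measured signal. For HS3ST4, HS3ST5 and HS6ST3, which may lie near background, these intervals do not bound the change in RNA. HS3ST2 was not checked against background either, so its interval may not bound that change. Over the whole array 34.8% of probe sets passed the same test, 18.0% higher and 16.8% lower in treated cells, so the count of 2 rises and 1 fall among 10 is near the array's background. The 3 changes were large ones for the array: all 3 were 1.5-fold or more, which 13.4% of all probe sets were along with passing the test, and the absolute changes of HS6ST2, HS3ST1 and HS3ST3A1 equalled or exceeded those of 99.1%, 96.8% and 93.3% of probe sets. The median change over the 10 genes was 0.08, against -0.01 over all 1259 probe sets. Treated and untreated values did not overlap in 4 of the 10, against 46.1% of all probe sets. All 3 changed genes are dim, with means under 4.9, and a filter that keeps only the 839 brighter probe sets removes them from the test. In these bulk samples fewer cells expressing a gene and less RNA per cell cannot be told apart.

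**Figure D1:**
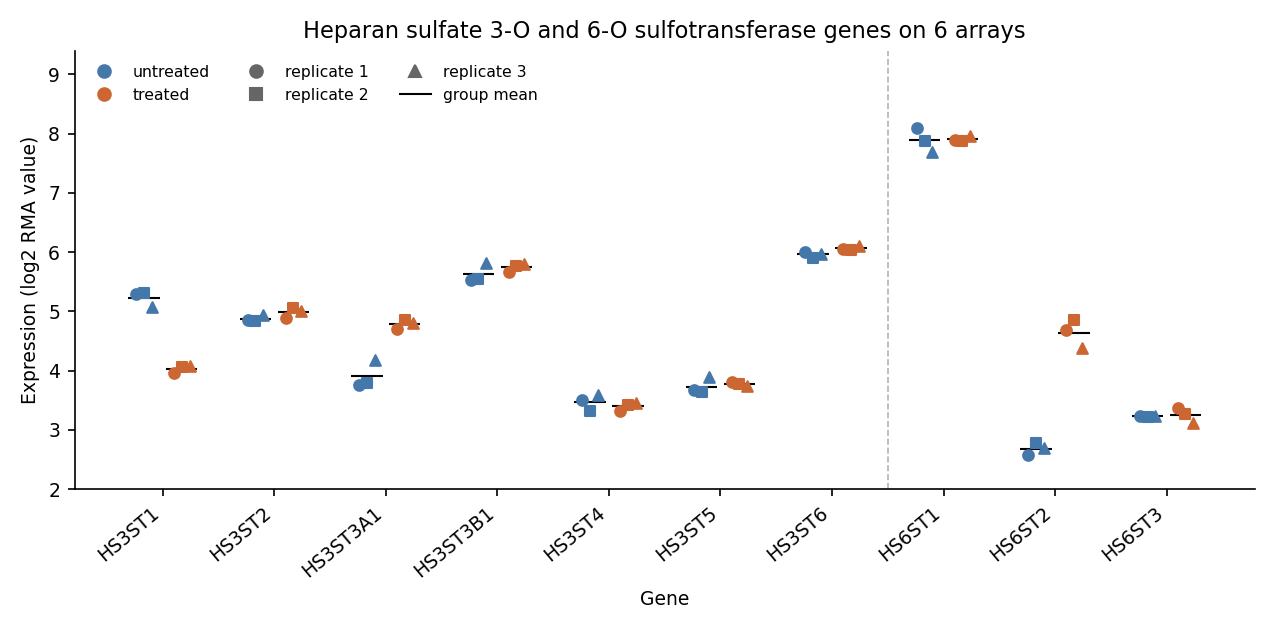
Log2 expression value (vertical axis) of the 10 genes (horizontal axis) on each of the 6 arrays, untreated in blue and treated in orange, with a symbol for each replicate number and a black line at each group mean. HS3ST1, HS3ST3A1 and HS6ST2 separate into groups that do not overlap, and so does HS3ST6, by 0.03. Untreated replicate 3 stands above the other untreated arrays in HS3ST3A1 (4.18 against 3.75 and 3.79). Heights of different genes are not comparable, since each probe set has its own brightness.

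HS6ST2 is a 6-O-sulfotransferase. Its values in untreated cells were 2.57, 2.78 and 2.69, and in treated cells 4.68, 4.85 and 4.38. Every treated array lay at least 1.60 above every untreated array, a gap wider than the range of 0.47 among treated arrays, of which replicate 3 was the lowest. The log2 change was 1.96 ± 0.11 (SE, n = 3 arrays per group; 95% interval 1.70 to 2.21; limma adjusted p = 3.96e-07). The gene started at the bottom of the array's scale: only 2.22% of probe sets had an untreated mean at or below its own, against 28.6% for its treated mean. The change is therefore the measured one, with the untreated side possibly at background. Without untreated replicate 3 the change was again 1.96 (limma adjusted p = 4.32e-06).

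HS6ST1, the isoenzyme with the same reaction, was measured at 8.10, 7.88 and 7.69 in untreated and at 7.90, 7.87 and 7.96 in treated cells. The treated values lay inside the untreated range, and the change was 0.02 ± 0.10 (SE, n = 3 arrays per group; 95% interval -0.20 to 0.24; limma adjusted p = 0.931). HS6ST3 gave 3.24, 3.21 and 3.23 in untreated and 3.36, 3.27 and 3.12 in treated cells. The treated values fell on both sides of the untreated ones, with a change of 0.02 ± 0.08 (SE; 95% interval -0.15 to 0.19; limma adjusted p = 0.894). HS6ST3 was as bright as or brighter than only 8.26% of probe sets over the 6 arrays, and no detection calls were used here, so a gene at this level may lie near the array's background.

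HS3ST1 fell. It gave 5.30, 5.31 and 5.07 in untreated cells and 3.96, 4.06 and 4.08 in treated cells. The lowest untreated value stood 0.99 above the highest treated value, and the 3 treated arrays lay within 0.11 of each other. The change was -1.19 ± 0.08 (SE, n = 3 arrays per group; 95% interval -1.38 to -1.01; limma adjusted p = 1.55e-06). Untreated replicate 3 was the lowest of its group, 18.5% of the way to the treated mean, and without it the change was -1.27 (limma adjusted p = 2.42e-06).

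HS3ST3A1 rose. Its values were 3.75, 3.79 and 4.18 in untreated and 4.71, 4.86 and 4.80 in treated cells. Untreated replicate 3 stood 40.2% of the way from the other untreated arrays to the treated mean, and the groups were still 0.53 apart. The change was 0.88 ± 0.11 (SE, n = 3 arrays per group; 95% interval 0.64 to 1.12; limma adjusted p = 0.000102), and without untreated replicate 3 it was 1.02 (limma adjusted p = 1.1e-05). The spread within groups was wide for the array, since 90.5% of probe sets had a within-group variance at or below that of HS3ST3A1.

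HS3ST3B1, whose catalytic domain is nearly that of HS3ST3A1, was measured at 5.53, 5.55 and 5.81 in untreated and at 5.66, 5.77 and 5.80 in treated cells. The groups overlapped through untreated replicate 3, the highest value of all 6. The change was 0.11 ± 0.09 (SE; 95% interval -0.08 to 0.31; limma adjusted p = 0.385). Without that array it was 0.20 and still missed the threshold (limma adjusted p = 0.0774).

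HS3ST6 is the remaining 3-O isoenzyme whose groups did not overlap. It gave 6.01, 5.90 and 5.97 in untreated and 6.06, 6.04 and 6.11 in treated cells, a gap of 0.03 between groups. The change was 0.11 ± 0.07 (SE; 95% interval -0.04 to 0.26; limma adjusted p = 0.263), so it was not called. HS3ST2, a gene whose promoter is known to be methylated in several cancers, gave 4.86, 4.83 and 4.93 in untreated and 4.89, 5.06 and 5.00 in treated cells. These overlapped, with a change of 0.11 ± 0.07 (SE; 95% interval -0.05 to 0.27; limma adjusted p = 0.306). The interval tops out at 1.21-fold in measured signal. The level of HS3ST2 was not checked against background, so this may not bound the change in its RNA.

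HS3ST4, known mainly from brain, gave 3.51, 3.32 and 3.58 in untreated and 3.31, 3.42 and 3.46 in treated cells. Its change was -0.07 ± 0.08 (SE; 95% interval -0.26 to 0.11; limma adjusted p = 0.565). HS3ST5 gave 3.67, 3.63 and 3.89 in untreated and 3.80, 3.78 and 3.74 in treated cells, with a change of 0.05 ± 0.08 (SE; 95% interval -0.13 to 0.23; limma adjusted p = 0.726). Both genes overlapped between the groups, and both were dim, with 11.8% and 16.4% of probe sets at or below their mean level. Untreated replicate 3 was the highest untreated array for HS3ST2, HS3ST3A1, HS3ST3B1, HS3ST4 and HS3ST5, and the lowest for HS3ST1 and HS6ST1.

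**Figure D2:**
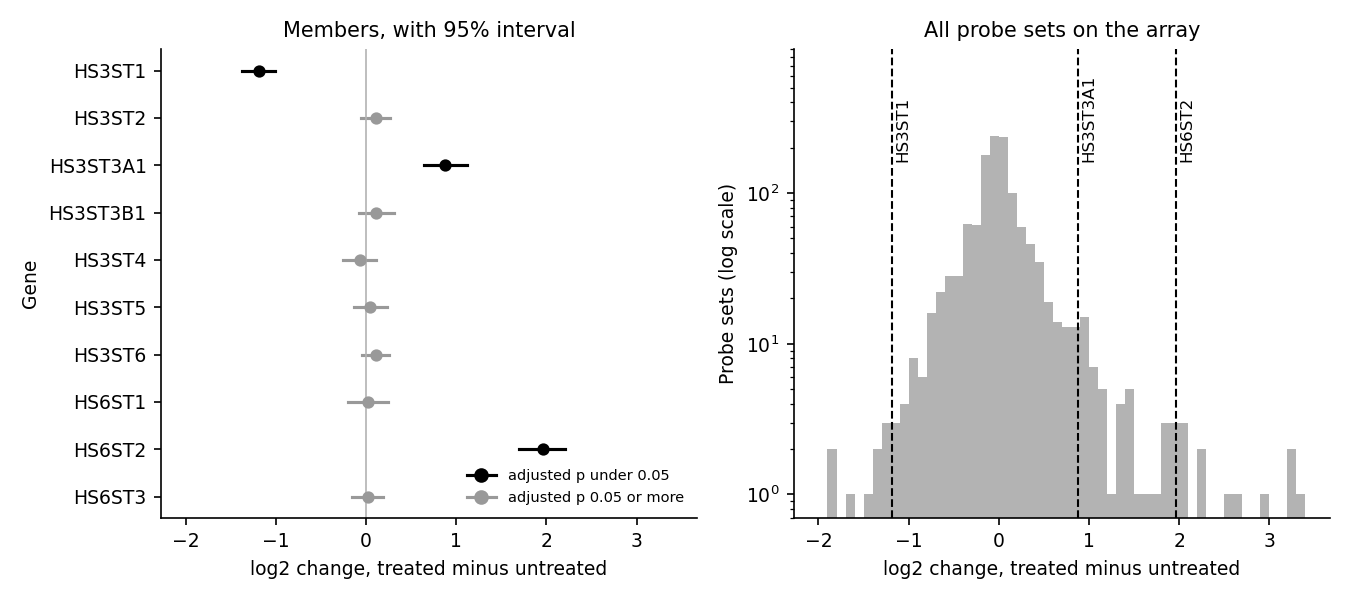
Left, log2 change (treated minus untreated, horizontal axis) of the 10 genes with limma's 95% interval, black where the adjusted p was under 0.05 and grey otherwise. Right, number of probe sets (vertical axis, log scale) by log2 change over all 1259, with dashed lines at HS3ST1 (-1.19), HS3ST3A1 (0.88) and HS6ST2 (1.96), which lie in the tails of the distribution, while the grey intervals all include 0.

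Isoenzymes were compared by the difference of their changes: on each array one gene's log2 value was subtracted from the other's, and the treated arrays were set against the untreated ones. This cancels any shift common to a whole array. There were 24 pairs, 21 within HS3ST and 3 within HS6ST. With 3 arrays against 3 the exact permutation test over 20 arrangements (two-sided) cannot go below p = 0.1. Adjusted over the 24 pairs it cannot pass 0.05, so the comparison only describes sizes and the separation of arrays.

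HS6ST2 changed by 1.94 ± 0.23 more than HS6ST1 as measured (SE of the difference, n = 3 arrays per group). The untreated values of HS6ST2 may lie at background, so this difference may understate the real one. The 9 comparisons of a treated with an untreated array ranged from 1.41 to 2.52 (exact permutation p = 0.1, adjusted p = 0.15). Without untreated replicate 3 the difference was 2.05. Against HS6ST3 the difference was 1.93 ± 0.12, with the 9 comparisons from 1.69 to 2.26 (exact permutation p = 0.1, adjusted p = 0.15). HS6ST3 may also lie near background, so the real difference from it could be smaller or larger. HS6ST3 and HS6ST1 differed from each other by 0.00 ± 0.15, with comparisons from -0.38 to 0.32 (exact permutation p = 1). Within the 6-O family the measured change thus lay in HS6ST2. For the other 2 the 9 comparisons share arrays, so their range describes a spread and sets no bound on a difference.

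Within the 3-O family the widest difference was that of HS3ST3A1 over HS3ST1, 2.07 ± 0.22 on the log2 scale or 4.2-fold. The 9 comparisons ran from 1.61 to 2.34 (exact permutation p = 0.1, adjusted p = 0.15). Without untreated replicate 3 this difference was 2.29. HS3ST3A1 exceeded its close relative HS3ST3B1 by 0.77 ± 0.05, with the 9 comparisons from 0.63 to 0.87 (exact permutation p = 0.1, adjusted p = 0.15). The error of a pair difference comes from that pair's values alone, while limma's errors also draw on all probe sets. It is therefore not comparable with the errors of the single changes. Untreated replicate 3 was high in both genes, and without that array the difference was 0.81. HS3ST1 fell behind HS3ST2, HS3ST3B1, HS3ST4, HS3ST5 and HS3ST6 by 1.12 to 1.31.

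In all 13 pairs that contain HS3ST1, HS3ST3A1 or HS6ST2 the arrays separated completely, with differences from 0.77 to 2.07. These genes were called on the same arrays and the pairs share genes, so this restates those calls and is no separate support. Of the 11 pairs among the other genes 3 did so, those of HS3ST2, HS3ST3B1 and HS3ST6 over HS3ST4, at 0.18 to 0.19. Over these 11 pairs differences ran from 0.00 to 0.19, and single comparisons of a treated with an untreated array from -0.38 to 0.36. The separation of 3 of these pairs was smaller than any of the 13.

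**Figure D3:**
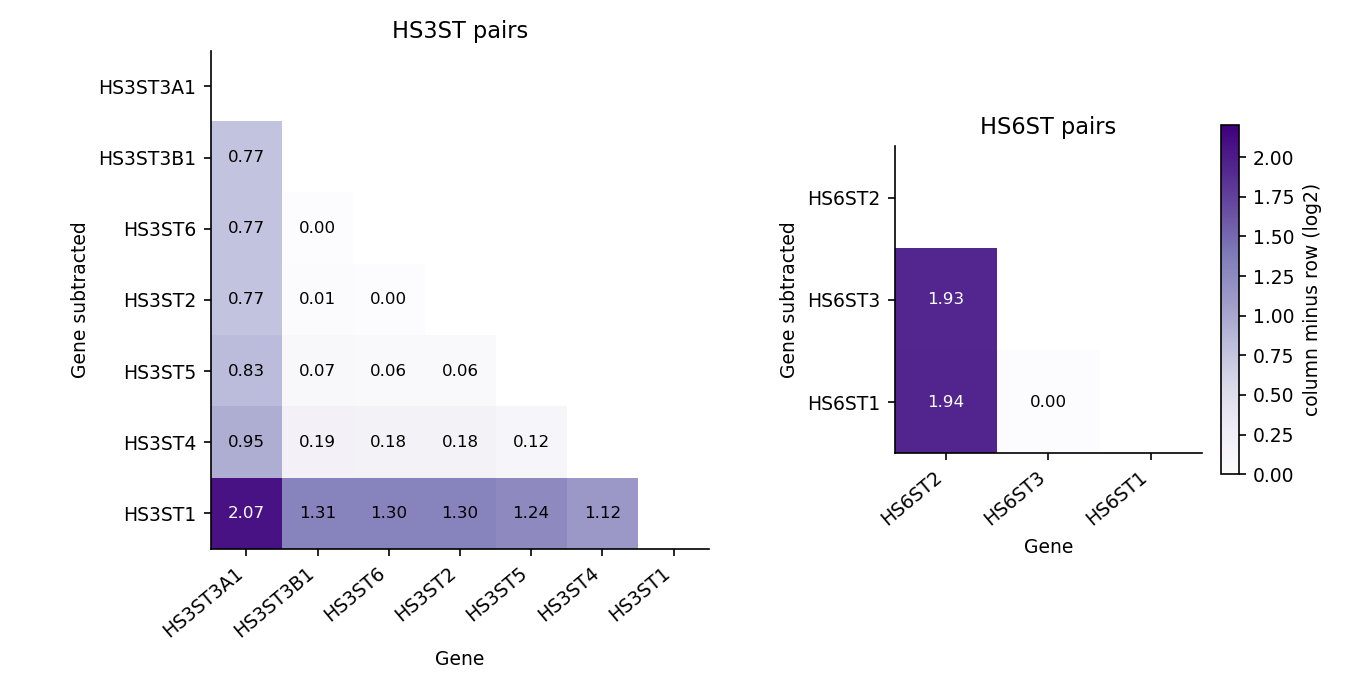
Difference in log2 change between isoenzymes, the gene of the column minus the gene of the row, for the 21 HS3ST pairs (left) and the 3 HS6ST pairs (right), with genes ordered by their change and darker cells for larger differences. The HS3ST3A1 column (0.77 to 2.07), the HS3ST1 row (1.12 to 2.07) and the HS6ST2 column (1.93 and 1.94) stand out, and the other cells lie between 0.00 and 0.19.

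Since the methylation that the drug keeps from being maintained lies mainly on cytosines before guanine, the promoters of the 3 genes that changed, and of HS6ST1 beside HS6ST2, are shown to give the number of such CG sites. Methylation itself was not measured here. The sequences are the 250 bases before each gene's start, 5′ to 3′ on the gene's strand, from RefSeq (GRCh38.p14), with every CG in capitals. The table held the promoters of all 10 genes.
HS3ST1: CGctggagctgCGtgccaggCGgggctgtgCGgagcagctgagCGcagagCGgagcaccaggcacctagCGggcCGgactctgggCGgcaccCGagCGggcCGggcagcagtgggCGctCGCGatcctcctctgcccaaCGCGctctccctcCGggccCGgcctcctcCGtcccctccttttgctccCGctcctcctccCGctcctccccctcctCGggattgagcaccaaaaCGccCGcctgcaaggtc
HS3ST3A1: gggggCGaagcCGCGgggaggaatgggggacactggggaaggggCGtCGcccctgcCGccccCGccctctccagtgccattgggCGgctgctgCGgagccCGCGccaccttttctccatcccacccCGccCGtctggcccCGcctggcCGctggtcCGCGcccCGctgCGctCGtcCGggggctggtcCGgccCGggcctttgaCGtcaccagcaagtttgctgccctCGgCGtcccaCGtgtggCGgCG
HS6ST2: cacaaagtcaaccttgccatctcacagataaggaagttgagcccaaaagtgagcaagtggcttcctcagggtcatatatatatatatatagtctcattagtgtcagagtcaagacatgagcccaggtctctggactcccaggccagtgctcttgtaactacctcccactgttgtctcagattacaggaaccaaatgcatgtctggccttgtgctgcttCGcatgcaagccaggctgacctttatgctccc
HS6ST1: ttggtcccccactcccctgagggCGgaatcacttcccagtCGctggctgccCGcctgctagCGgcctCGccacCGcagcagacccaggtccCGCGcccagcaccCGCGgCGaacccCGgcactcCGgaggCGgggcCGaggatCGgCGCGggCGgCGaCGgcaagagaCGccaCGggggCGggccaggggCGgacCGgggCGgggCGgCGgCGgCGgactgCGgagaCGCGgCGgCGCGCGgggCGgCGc

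These lie on the minus strand at chr4:11428895-11429144 (HS3ST1), chr17:13601930-13602179 (HS3ST3A1), chrX:132961371-132961620 (HS6ST2) and chr2:128318869-128319118 (HS6ST1). The HS6ST2 window held 1 CG, and 93.9% of the 35116 promoters of the table have at least as many. HS3ST1 held 25 and HS3ST3A1 29, numbers that 21.6% and 14.1% of promoters reach. HS6ST1, which was not called, held 40, reached by 2.16% of promoters. The other genes held 15 (HS3ST3B1 and HS6ST3), 18 (HS3ST5), 21 (HS3ST2), 27 (HS3ST4) and 28 (HS3ST6), against a median of 11 over all promoters. Over the 727 array genes with a promoter in the table the median was 18, with 22 for genes called higher, 20.5 for genes called lower and 15 for genes not called. HS3ST1 and HS3ST3A1 lay above the medians of the called genes, HS6ST2 far below them, and HS6ST1 far above that of the genes not called. With 10 members no relation was tested. RefSeq lists 4 curated transcripts for HS6ST2 and the table gives 1 start per gene, so the window may not be the start that these cells use.

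Both strands of the 250 bases were also searched for GGGCGG, the core of the GC box, which 42.6% of all promoters hold. It was found in 8 of the 10, most often in HS6ST1 (6 matches), HS3ST3B1 (5) and HS3ST3A1 (4), and not in HS6ST2 or HS6ST3. The cyclic AMP response element TGACGTCA, a palindrome with a CG at its centre, was seen in the HS3ST3A1 and HS3ST2 windows on reading them and then counted: 1.65% of all promoters hold it. Of these genes HS3ST3A1 rose and HS3ST2 was not called.

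The genes whose values over the 6 arrays lay nearest to those of each changed member, after centring each gene on its mean, were taken by Euclidean distance among 927 named genes. For HS6ST2 they were CCL5 (distance 0.22), CHST11 (0.38) and LAYN (0.40), and CCL5, a chemokine, shared its lowest treated value in replicate 3: it gave 4.70, 5.11 and 5.02 in untreated and 7.09, 7.13 and 6.76 in treated cells. For HS3ST3A1 they were CHST10 (0.13), DLL3 (0.23) and SMO (0.29). CHST10, the sulfotransferase of the HNK-1 epitope, gave 5.33, 5.20 and 5.63 in untreated and 6.19, 6.32 and 6.29 in treated cells, with untreated replicate 3 again the highest of its group. For HS3ST1 they were FZD7 (0.16), LGALS8 (0.23) and EEF1A1 (0.29), and FZD7, a Wnt receptor, lay between 9.10 and 9.35 in untreated and between 7.95 and 8.22 in treated cells. Such likeness rests on 6 arrays and mostly on the step between the groups. The genes were picked by these same values, so patterns shared between replicates follow from the choice and are no separate finding.

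The rest of heparan sulfate metabolism was described by 44 measured genes of 49 listed. Of these 5 rose, 11 fell and 28 were not called (array background 18.0% higher and 16.8% lower), with a median change of -0.10. Without untreated replicate 2 the falls numbered 6. RNA of the EXT and EXTL genes, grouped here under chain polymerisation, changed little as measured. None of these 5 genes (EXT1, EXT2, EXTL1, EXTL2 and EXTL3) passed limma's test, with 0 at 0.05 and changes from -0.20 to -0.01. However, 1 fell without untreated replicate 3 and with array weights. Of the 6 genes of N-sulfation, epimerisation and 2-O-sulfation 1 passed: HS2ST1, the 2-O-sulfotransferase, went from 6.40 to 6.17 (-0.22 ± 0.08 SE, limma adjusted p = 0.0468). That call was lost on leaving out untreated replicate 1, 2 or 3, or treated replicate 2 or 3, and with an intensity trend or array weights, with 0 of 6 then called. The N-sulfotransferases NDST1, NDST2, NDST3 and NDST4 changed by -0.11 to 0.05.

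Genes that act before the chain begins or that feed every sulfation step were lower where called. In the linkage region, the tetrasaccharide that joins the chain to its protein and is shared with chondroitin sulfate, 4 of 5 genes fell and 0 rose. B3GALT6, a galactosyltransferase of the linkage, went from 7.76 ± 0.16 to 6.98 ± 0.04 (SD, n = 3; limma adjusted p = 4.88e-05), and B4GALT7, which adds the first galactose, from 7.66 to 7.28 (limma adjusted p = 0.0041). Without untreated replicate 2, or without treated replicate 1, 2 of the 5 fell. All 5 fell without untreated replicate 3, after quantile normalization and with array weights. For PAPS, the sulfate donor of all these enzymes, 2 of 4 genes fell, both transporters into the Golgi. SLC35B2 fell by 0.48 ± 0.08 (SE, limma adjusted p = 0.00104) and SLC35B3 fell by 0.38 ± 0.10 (limma adjusted p = 0.0117). The synthases PAPSS1 (0.03 ± 0.09) and PAPSS2 (-0.22 ± 0.12) were not called with all 6 arrays. Without untreated replicate 2, and after quantile normalization, 1 of the 4 fell. Leaving out untreated replicate 3 instead gave 3 falls among the 4, so a synthase was then called.

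Genes that trim or degrade the chain went both ways, with 2 rises and 2 falls among 10. HPSE, heparanase, rose from 8.27 to 9.01 (0.74 ± 0.09 SE, limma adjusted p = 7.43e-05), and IDS, a lysosomal sulfatase, rose by 0.55 ± 0.10 (limma adjusted p = 0.00158). IDUA, lysosomal iduronidase, fell by 0.55 ± 0.09 (limma adjusted p = 0.000783), and GUSB, lysosomal glucuronidase, fell by 0.31 ± 0.08 (limma adjusted p = 0.0075). Without untreated replicate 3, and with array weights, there were 4 falls. SULF2, which removes the 6-O sulfates that the HS6ST enzymes add, changed by 0.06 ± 0.09 and SULF1 by -0.05 ± 0.09, and neither was called.

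Among proteoglycan cores, the proteins that can carry these chains, 3 of 14 rose and 2 fell. SRGN, serglycin, rose from 3.17 to 4.17 (1.00 ± 0.07 SE, limma adjusted p = 2.11e-06), and SDC4, a syndecan, from 9.52 to 10.22 (0.70 ± 0.08, limma adjusted p = 3.6e-05). GPC4, a glypican, fell by 0.54 ± 0.09 (limma adjusted p = 0.000983) and TGFBR3, betaglycan, fell by 0.40 ± 0.10 (limma adjusted p = 0.0111). The third rise was CD44, which carries heparan sulfate on some isoforms and lies outside the rule for named genes. Without untreated replicate 2, 1 of the 14 fell, and without the dimmest probe sets 1 rose.

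**Figure D4:**
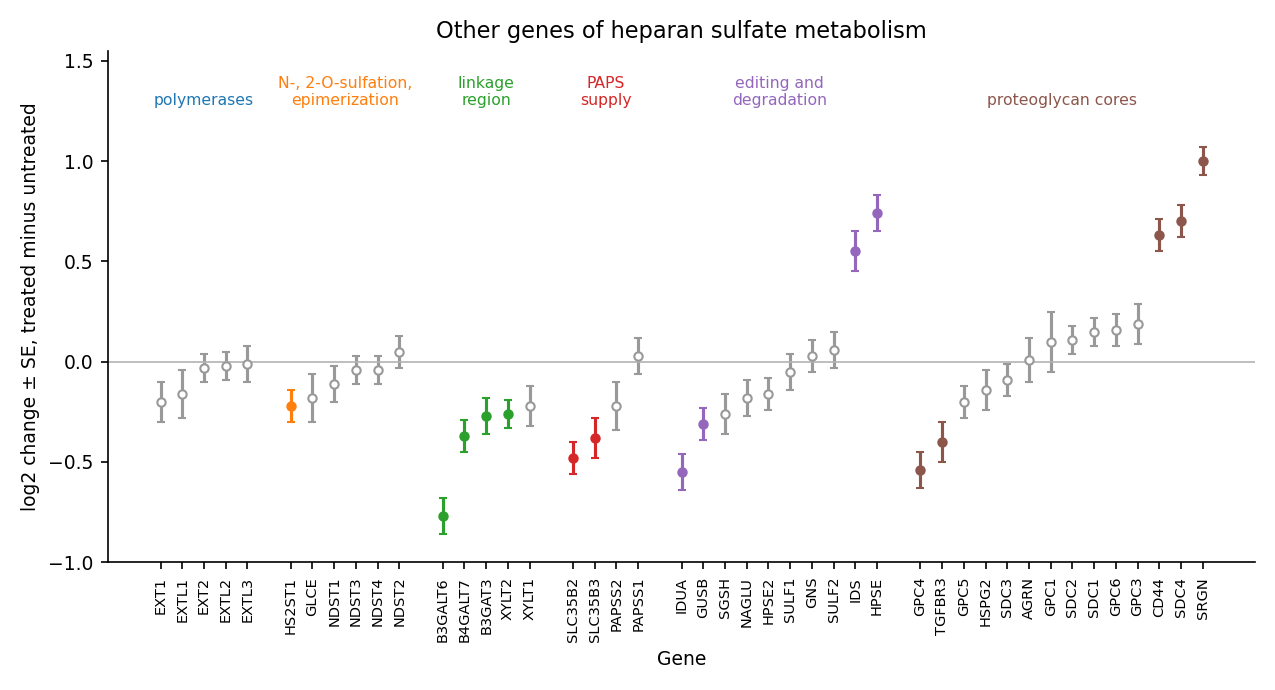
Log2 change (treated minus untreated, vertical axis) with its standard error for 44 other genes of heparan sulfate metabolism, grouped by role along the horizontal axis and ordered by change within each role. Filled points had an adjusted p under 0.05 and open grey points did not: the filled linkage and PAPS genes lie below 0 (the lowest, B3GALT6, at -0.77), and the proteoglycan cores range from -0.54 (GPC4) to 1.00 (SRGN).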

How the data were processed

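Biotin-labelled RNA was hybridised to Affymetrix arrays, per the labels. The authors' deposited table holds log2 values (6 arrays, 1259 probe sets, 2.13 to 13.67), made with RMA per the submitters' processing notes. Its version, settings and platform are not stated there. The log2 scale was read from the range. RMA compresses differences of dim probe sets. Columns left unused numbered 0, and at most 5 values were identical between any pair of arrays.

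RefSeq identifiers in probe set names were matched without versions to a RefSeq table (GRCh38.p14, for names), giving 927 genes from 1043 probe sets. The brightest probe set by mean stood for a gene with several; no member has several, and no other probe set of a pathway gene changed the call.

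limma 3.58.1 in R 4.3.3 was fitted to all 6 arrays (lmFit, eBayes, two-sided, Benjamini-Hochberg over 1259, threshold 0.05), and the steps were tested on simulated data. Pairs used an exact permutation test. Members and lists were chosen with earlier results of these data known. Named were all members, up to 2 called genes with the smallest p per list and direction, and 3 nearest genes per called member; others were named after their values were seen. Alternatives were another normalization or centring, a filter on dim probe sets (839 kept, mean at least 4.9), priors, array weights, the replicate block, each array left out and a threshold of 0.01, and, chosen after seeing the data, quantile normalization for the pairs.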

Additional observations from a re-analysis of the deposited data

How the results depend on the processing

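The calls of HS3ST1, HS3ST3A1 and HS6ST2 kept their direction and passed the threshold in all 12 alternatives run for each. Their log2 changes ranged from -1.27 to -1.15, from 0.79 to 1.02 and from 1.85 to 2.08, with highest adjusted p of 0.00027, 0.00128 and 7.86e-05. The filter on dim probe sets removed all 3 before testing, which left 0 rises and 0 falls among the members. No alternative called any of the other 7 genes, whose lowest adjusted p was 0.0774. The near-zero changes of HS3ST5, HS6ST1 and HS6ST3 changed sign under median centring (-0.02, -0.05 and -0.05). The same-numbered arrays did not deviate together (correlations -0.27, 0.04 and -0.11), so the numbers were not taken as pairs. With the replicate block 2 rises and 1 fall remained among the members and the falls in the pathway lists numbered 8, with 3 in the linkage region, 0 for HS2ST1's list and 1 among proteoglycan cores. Leaving out each array in turn gave 6 to 15 such falls against 11. Over all probe sets 197 rises and 311 falls passed after median centring, against 227 and 211. Pairs with every probe set of a gene were not run, as each member has 1. The level of the dim probe sets against background limits HS6ST2, HS6ST3, HS3ST4 and HS3ST5. The untreated mean of HS3ST3A1 (20.2% of probe sets at or below) and the treated mean of HS3ST1 (19.5%) were also dim. Neither was checked against background, so these folds may be understated too. HS3ST2 (33.5% of probe sets at or below its untreated mean) was not checked either.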
